A study of Mus musculus with 8 samples.

Results

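The genes described here build lipoproteins or move lipid into, out of and within cells: Mttp, P4hb, Dgat1, Dgat2, Pltp, Fabp1, Fabp3, Abca1, Scarb1 and Lcat. They were chosen by gene symbol, and every probe set annotated to 1 of the 10 genes alone was taken, which gave 18 of the 22626 probe sets on the array that are not the maker's controls. Each was compared between primitive erythroid precursors, the first red cell precursors of the embryo, and epithelial cells. Both were cut by laser from the same 8-micron frozen sections of yolk sacs of FVB/N mice at embryonic day 9.5. There were 4 erythroid and 4 epithelial captures in 4 pairs, and each pair pooled 2 to 4 yolk sacs from 2 litters. No genotype or treatment was varied. An erythroid cell took 2 to 3 laser pulses and an epithelial cell 1. Being cut from sections, the captures are enriched cells and not sorted ones.

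A lipoprotein of the kind that carries triglyceride begins in the endoplasmic reticulum, where the microsomal triglyceride transfer protein, a dimer of the products of Mttp and P4hb, loads lipid onto apolipoprotein B. The triglyceride is made there by the acyltransferases Dgat1 and Dgat2, and small cytosolic fatty acid binding proteins such as Fabp1 and Fabp3 carry the fatty acids. High-density lipoprotein forms in another way: Abca1 hands cholesterol and phospholipid to apolipoprotein A-I, Lcat esterifies the cholesterol in plasma, Pltp transfers phospholipid between particles, and Scarb1 takes up cholesteryl ester from them. The visceral endoderm, the epithelium of the yolk sac, secretes apolipoprotein B particles to feed the embryo before its liver can.

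Mttp, Fabp1 and Dgat2 fell in the erythroid captures, and none of the 10 genes rose. With 1 value per gene, from its brightest tested probe set, 3 of the 8 genes tested were lower, beside 8.87% of all 7191 genes tested, and 0 were higher, beside 6.02%. No member was higher at an unadjusted p under 0.05 either. By probe set, 8 of 13 tested were lower and 0 higher, against 7.69% and 6.19% of all 11449 tested: 2 each of Mttp, Fabp1, Dgat2 and Scarb1, the last not on its brightest. With the arrays centred on their medians, which moved the split of all calls to 1097 lower and 455 higher, against 881 and 709, the members stood at 4 genes lower and 0 higher. The median log2 difference, erythroid minus epithelial, was -0.47 for the 8 genes and -0.0052 for all genes tested. The tests were those of limma on paired captures, and the threshold was 0.05. The p-values were adjusted by the Benjamini-Hochberg method across the 11449 probe sets. Differences are given with the standard error (SE) of this fit to 4 pairs. The fit draws the variance of each probe set toward a trend over all probe sets tested. The SE is therefore not the spread of the 4 pairs alone and can be smaller than it. After normalisation, the 8 probe sets called were lower in the erythroid capture of all 4 pairs. In deposited signals this held except for the Scarb1 probe set 1416050_a_at in pair 1, at 227 erythroid against 215 epithelial. For 6 of the 13, both of Mttp, both of Dgat2 and both of Fabp1, all erythroid signals lay below all epithelial ones, beside 6.48% of all probe sets tested. Fabp3 and Lcat were not tested, since each reached its array's median signal on fewer than 4 of the 8 arrays (3 for Fabp3 and 2 for Lcat).

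**Figure D1:**
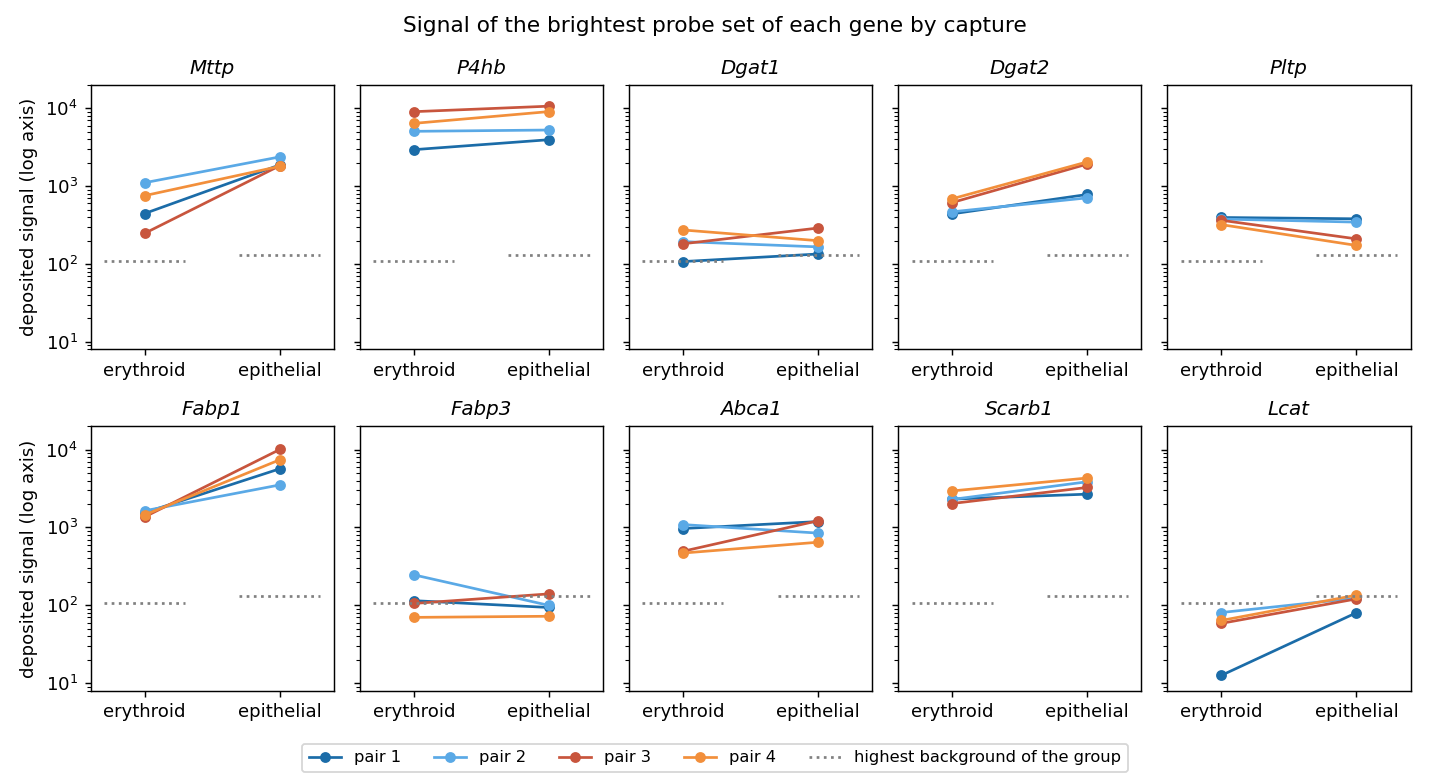
Deposited signal (vertical log axis) of the brightest probe set of each of the 10 genes in erythroid captures (left) and epithelial captures (right). Lines join the captures of a pair, and dotted lines mark the highest background level among the arrays of a group. The lines of Mttp, Dgat2 and Fabp1 run upward to the epithelial captures in every pair without overlap of the groups. Those of Dgat1, Fabp3 and Abca1 run upward in some pairs and downward in others.

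The captures were checked against markers of the cell types in the yolk sac. Of 13 erythroid markers tested, 10 were called higher and 0 lower in the erythroid captures (median log2 difference 2.05), and of 16 visceral endoderm markers 13 were called lower and 0 higher (median -1.43). Of all genes tested, 8.87% were lower and 6.02% higher. The brightest probe sets of the 2 brightest genes of both these lists had close values in the captures after normalisation. The embryonic globins Hbb-bh1 and Hbb-y differed by -0.11 ± 0.07 and 0.068 ± 0.070 (adjusted p = 0.348 and 0.561), and the endoderm transcripts Ttr and Afp by -0.20 ± 0.07 and -0.16 ± 0.09 (adjusted p = 0.083 and 0.249). Their mean signals, 26125 to 39902, lay near the highest signals of the arrays, 24645 to 58408. There quantile normalisation gives all arrays nearly the same values, so a difference in RNA could be missed. The deposited mean of Hbb-bh1 was higher in erythroid captures, at 39902 against 36732. Dimmer probe sets of some of these genes were called, so that 2 of 3 for Ttr, 1 of 4 for Afp, 1 of 3 for Hbb-y and 0 of 3 for Hbb-bh1 passed. Summed over the list, endoderm markers had signals of 77786.6 to 110712 in erythroid captures, against 124609 to 201990 in epithelial captures, and none was below background on all arrays of a group. Mesenchyme and mesothelium markers were higher for 8 of 12 tested and lower for 0, with sums of 41834 to 63253 in erythroid captures and 9413 to 36726 in epithelial captures. Their brightest, the collagen gene Col3a1 and Vim, an intermediate filament gene, were at 1.34 ± 0.40 and 1.16 ± 0.27 (adjusted p = 0.0471 and 0.0179). Both calls ended without replicate 3 (1.12 and 0.89, adjusted p = 0.187 and 0.0917) or replicate 4 (0.78 and 0.91, adjusted p = 0.192 and 0.101). Of the tested probe sets, 1 of 2 for Col3a1 and 3 of 3 for Vim were called. The endoderm markers Apoa1, Apob, Cubn, Amn, Hnf4a and Foxa2 also stand in the pathway lists below, so this check and those lists share values. The part of other cells in the values below was not tested. In such captures, fewer cells of a type and less RNA per cell cannot be told apart.

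With 4 arrays a group, their number limits precision. An array's background, set by 117 probe sets for receptors and proteins foreign to this tissue, lay between 55.1 and 133. Pairs 1 and 2, called set A below, differed from pairs 3 and 4, called set B, in the 3' to 5' ratios of control transcripts. In set A the 3' probe set of Gapdh was 38.7 to 44.4 times as bright as the 5' one, whereas in set B this ratio, which grows as the RNA gets shorter, was at most 17.4. For Actb it was 46.5 to 131 in set A and 7.75 to 13.5 in set B. The captures of a pair could differ too. In pair 3 the Gapdh ratio was 17.4 erythroid and 8.16 epithelial, and in pair 1 that of Actb was 46.5 and 131. The part of RNA length in the differences between captures was not tested. Values for each set are given for the members. They are also given for named genes of the marker and pathway lists whose interaction of cell type with set passed the test.

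Mttp was lower in the erythroid captures on both of its probe sets. On the brighter, 1419400_at, the signal was 446, 1109, 248 and 756 in the erythroid captures of pairs 1 to 4, against 1877, 2379.9, 1835 and 1801 in the epithelial captures. The highest erythroid capture thus lay below the lowest epithelial one, and the epithelial captures were close to each other apart from that of pair 2. The difference was -1.82 ± 0.30 on the log2 scale (SE, adjusted p = 0.00358), which makes the signal 3.53 times as high in epithelial captures. The other probe set, 1419399_at, had signals of 281, 575, 370.5 and 328 in erythroid captures, against 622, 1245, 1084 and 1941 in epithelial captures. These did not overlap either, and the difference was -1.61 ± 0.27 (adjusted p = 0.00412). The pair with the largest difference was not the same on the 2 probe sets: pair 3 on the brighter, at -2.98, and pair 4 on the other, at -2.59. The call of Mttp held with either probe set when any pair was left out (adjusted p at most 0.0289), and in set A and set B alone, where 4.74% and 12.7% of all probe sets were called lower. With 2 pairs left, those fits take the spread nearly whole from all probe sets.

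P4hb encodes protein disulfide isomerase, the abundant folding enzyme that serves as the small subunit of the transfer protein and also of the collagen prolyl hydroxylase. Its only probe set, 1437465_a_at, had signals of 2947, 5069.8, 9066 and 6413 in erythroid captures, against 3956, 5269.7, 10669 and 9090.4 in epithelial captures. It was lower in the erythroid capture of each pair, but the groups overlapped, and pairs 3 and 4 were brighter than pairs 1 and 2 in both cell types. The difference of -0.35 ± 0.13 (95% interval -0.64 to -0.06) did not pass the test (adjusted p = 0.098). With set B alone it passed, at -0.45 (adjusted p = 0.0269). The 2 subunits of the transfer protein thus had differences of -1.82 and -0.35, and the difference between them was not tested.

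**Figure D2:**
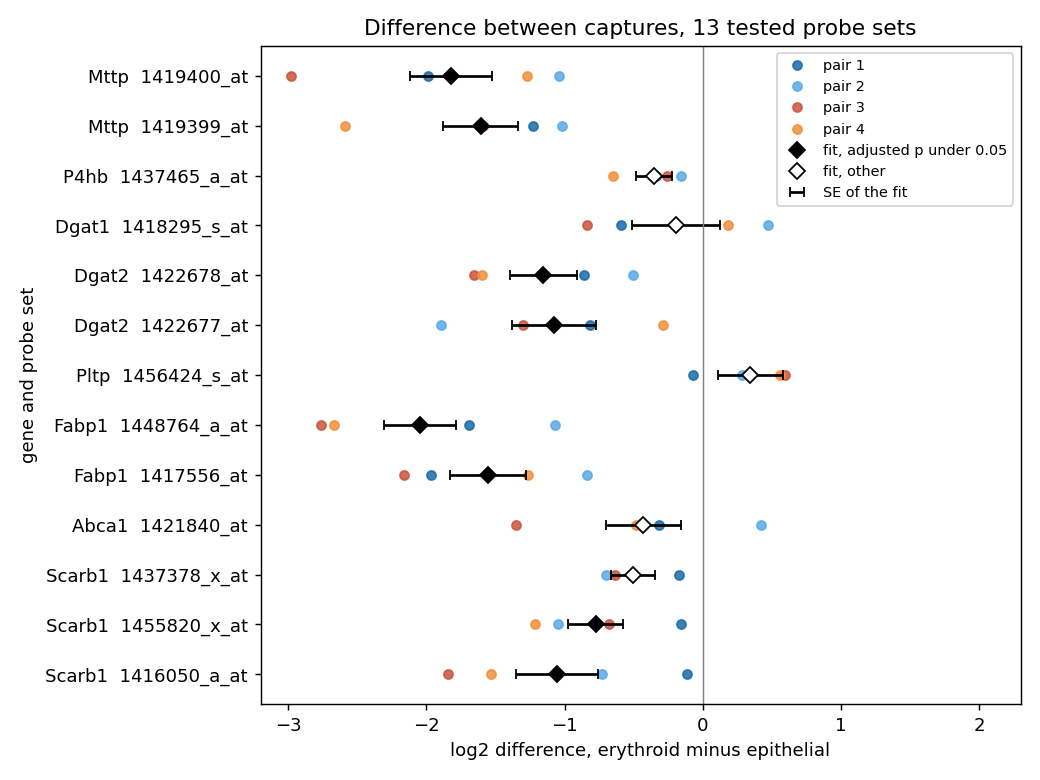
Log2 difference, erythroid minus epithelial (horizontal axis), for the 13 tested probe sets of the members (vertical axis). Dots are the 4 pairs, diamonds the fit with its SE, filled where the adjusted p was under 0.05. The filled diamonds belong to Mttp, Dgat2, Fabp1 and 2 probe sets of Scarb1, and all 4 of their dots lie below 0.

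The acyltransferases of the last step of triglyceride synthesis, which share little beyond their reaction, gave different values. Dgat2 had signals of 441, 469, 616 and 689 in erythroid captures on probe set 1422678_at, against 783, 708, 1924 and 2054 in epithelial captures. The groups did not overlap, and the epithelial captures of pairs 3 and 4 stood far above those of pairs 1 and 2. The difference was -1.15 ± 0.24 (adjusted p = 0.0114), with -0.68 for set A and -1.62 for set B (interaction, adjusted p = 0.263). The dimmer probe set, 1422677_at, had signals of 209, 73.5, 215 and 242 in erythroid captures, against 327, 292, 498 and 259 in epithelial captures. It fell by 1.07 ± 0.30 (adjusted p = 0.0404), with -1.35 for set A and -0.79 for set B. The call of the brighter probe set ended without replicate 3 (adjusted p = 0.056) or replicate 4 (0.0837), and that of the dimmer one on leaving out any single pair (0.0613 to 0.134).

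Dgat1, on its single probe set 1418295_s_at, had signals of 108, 194, 182 and 274 in erythroid captures, against 135, 166, 290.1 and 199 in epithelial captures. The groups overlapped throughout, with 2 pairs lower and 2 higher in the erythroid capture. The difference of -0.19 ± 0.32 (adjusted p = 0.73) had a 95% interval of -0.90 to 0.51, and it was not tested against that of Dgat2. All 8 signals were above background, and 7 of 8 reached the median of their array.

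Fabp1, the fatty acid binding protein of liver and gut, had the largest change among the 8 genes tested, by their brightest tested probe sets. Its bright probe set 1448764_a_at had signals of 1546, 1638, 1365 and 1448 in erythroid captures, against 5673, 3519.8, 10044.7 and 7407 in epithelial captures. The erythroid captures varied little (1499 ± 118, SD, n = 4) and the epithelial ones widely (6661 ± 2759.7, SD, n = 4), and the groups were far apart. The difference was -2.05 ± 0.26 (adjusted p = 0.00144), or 4.13 times as high in epithelial captures. It was -1.38 for set A and -2.72 for set B, and among the 13 tested probe sets this was the single one that passed the test of the interaction (adjusted p = 0.024), beside 1.84% of all probe sets tested. The second probe set, 1417556_at, had signals of 149.9, 260.2, 169.7 and 199.8 in erythroid captures, against 522, 497, 715 and 470.3 in epithelial captures. It fell by 1.56 ± 0.27 (adjusted p = 0.00515), at -1.40 for set A and -1.71 for set B, and its interaction did not pass (adjusted p = 0.859). Both calls of Fabp1 held when any pair was left out.

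Fabp3, the fatty acid binding protein of heart and muscle, was near background in both captures on its single probe set 1416023_at. Its signals were 115, 246, 106 and 69.9 in erythroid captures, against 93.7, 99.7, 140.1 and 72.3 in epithelial captures. The erythroid capture of pair 2 was the brightest, and 2 of 4 erythroid and 3 of 4 epithelial captures lay above background. It was too dim for the test.

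Other fatty acid binding proteins, taken from a list of lipid carriers, went both ways. Fabp2, the intestinal form, fell by 1.89 ± 0.21 (adjusted p = 0.00102), with signals of 433, 416, 503 and 357 in erythroid captures, against 1352, 1427, 1932 and 1699 in epithelial captures. Fabp4, known from fat cells, macrophages and capillary endothelium, rose by 1.56 ± 0.24 (adjusted p = 0.00333). Its signals were 842, 6958, 1488 and 200.3 in erythroid captures, against 380.02, 1969, 304 and 47.5 in epithelial captures, so it was higher in the erythroid capture of each pair while the pairs themselves differed far more. Of the markers of endothelium, 1 of 9 tested rose and 0 fell, with summed signals of 1989 to 3165 in erythroid captures and 885 to 1768 in epithelial captures, and of the macrophage and platelet markers 2 of 8 rose and 0 fell, with sums of 6562 to 20716 in erythroid captures and 2789.6 to 4158 in epithelial captures. The 2 were the platelet genes Pf4 and Clec1b, and Pf4 alone averaged 7954 in erythroid and 1631 in epithelial captures. None of the macrophage genes Csf1r, Lyz2, Adgre1 and Mrc1 was called (adjusted p = 0.142 to 0.723). Their part in the value of Fabp4 was not tested. Fabp5, the epidermal form, was the brightest of the family, at 15020.3 to 36389 in erythroid captures and 9364 to 22369 in epithelial captures, and rose by 0.61 ± 0.11 (adjusted p = 0.00502), a call that ended with the arrays centred on their medians (adjusted p = 0.178) and with no variance trend (0.114). Its second probe set, 3068 to 9064 in erythroid captures and 895 to 1625 in epithelial captures, was at 1.88 ± 0.24 (adjusted p = 0.00148). Fabp6, the bile acid binding form of the ileum, was below background on all 8 arrays.

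The promoters of Fabp1 and Mttp, which both fell, and of Fabp3, which stayed near background, are shown from RefSeq on build GRCm38.p6, from 250 bases before the annotated start of the gene to 50 after it. Capitals mark the motifs found. RefSeq windows matched 7 of the 10 genes (Mttp, P4hb, Pltp, Fabp1, Fabp3, Abca1 and Lcat).
Fabp1 (chr6:71199629-71199928, plus strand): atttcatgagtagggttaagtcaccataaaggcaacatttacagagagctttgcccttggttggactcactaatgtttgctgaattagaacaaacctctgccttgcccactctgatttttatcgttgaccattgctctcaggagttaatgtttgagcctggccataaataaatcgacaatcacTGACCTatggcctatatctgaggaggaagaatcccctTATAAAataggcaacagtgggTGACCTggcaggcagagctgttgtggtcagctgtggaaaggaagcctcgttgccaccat
Mttp (chr3:138143369-138143668, minus strand): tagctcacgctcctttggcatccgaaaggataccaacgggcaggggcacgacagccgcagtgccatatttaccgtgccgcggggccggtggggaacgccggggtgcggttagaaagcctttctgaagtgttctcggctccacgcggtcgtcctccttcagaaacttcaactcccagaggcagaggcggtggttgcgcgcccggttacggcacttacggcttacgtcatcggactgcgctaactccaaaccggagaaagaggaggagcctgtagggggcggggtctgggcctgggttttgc
Fabp3 (chr4:130308488-130308787, plus strand): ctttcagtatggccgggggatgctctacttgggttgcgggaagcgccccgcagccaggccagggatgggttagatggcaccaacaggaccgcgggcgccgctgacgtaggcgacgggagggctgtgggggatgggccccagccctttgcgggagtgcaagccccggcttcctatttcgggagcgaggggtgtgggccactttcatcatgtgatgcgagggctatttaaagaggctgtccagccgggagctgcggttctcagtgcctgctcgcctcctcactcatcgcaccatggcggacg

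The windows were searched on both strands for AGGTCA, the core bound by many nuclear receptors, CAAAGTCC, the core of the Hnf4 site, TGTTTAC, a core bound by Foxa factors, AGATAA, bound by Gata factors, TATAAA, the TATA box, and CCACACCCT, bound by Klf1. No 2 of these motifs overlapped in the windows of the members. The Fabp1 window held AGGTCA 2 times, both on the reverse strand (printed as TGACCT), with the first base 67 and 9 bases before the start, and TATAAA with its first base 30 bases before it. The windows of Mttp and Fabp3 held none of the 6 motifs. Among the 32851 windows of this length, 16.3% held AGGTCA, 13.6% TATAAA, 11.2% AGATAA, 3.65% TGTTTAC, 1.42% CAAAGTCC and 0.807% CCACACCCT. Of the other members, Pltp and Abca1 held TATAAA 1 time each and Lcat AGATAA 1 time. The share of G and C was 45% in the Fabp1 window, against 62% for Mttp and 65% for Fabp3 and a median of 52.7% over all windows. These matches describe the letters in the windows and do not show that a factor binds there.

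Scarb1, the receptor that takes cholesteryl ester from high-density lipoprotein, had 3 probe sets that were lower by unequal amounts. The brightest, 1437378_x_at, had signals of 2311, 2289.7, 2029.8 and 2944 in erythroid captures, against 2678, 3864, 3265 and 4318 in epithelial captures. The groups overlapped, and the difference of -0.50 ± 0.16 (95% interval -0.85 to -0.15) missed the threshold (adjusted p = 0.0578). The next, 1455820_x_at, had signals of 1699, 1456, 1566 and 2046 in erythroid captures, against 1935, 3054, 2633 and 4519 in epithelial captures, and fell by 0.77 ± 0.20 (adjusted p = 0.0269), although the groups overlapped. The dimmest, 1416050_a_at, had signals of 227, 198, 259 and 433 in erythroid captures, against 215, 356, 878 and 1245 in epithelial captures. It fell by 1.05 ± 0.30 (adjusted p = 0.0403), again with overlap, and pair 1 hardly differed on any of the 3, at -0.11 to -0.17 after normalisation. The dimmest probe set was at -0.42 for set A and -1.69 for set B (interaction, adjusted p = 0.206), the next at -0.60 and -0.95, and the brightest at -0.43 and -0.58. Probe sets whose name ends in x_at can pick up related transcripts. The calls of the last 2 ended without replicate 2 (adjusted p = 0.0911 and 0.0578), replicate 3 (0.0731 and 0.162) or replicate 4 (0.158 and 0.209), whereas the mean of the 3 probe sets was called, at -0.78 (0.0289).

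Abca1, which exports cholesterol to nascent high-density lipoprotein, was tested on 1 of its 3 probe sets, 1421840_at. The signals were 968, 1089, 494 and 469 in erythroid captures, against 1190.0, 846, 1219 and 646 in epithelial captures. The groups overlapped, with pair 2 higher and the other pairs lower in the erythroid capture. The difference of -0.43 ± 0.27 did not pass (95% interval -1.03 to 0.17, adjusted p = 0.325). It was 0.053 for set A and -0.91 for set B, where it passed alone (adjusted p = 0.0194), and the interaction did not pass (adjusted p = 0.317). The probe set 1421839_at was dim, with signals of 11.9, 25.8, 4.85 and 4.78 in erythroid captures, against 47.7, 86.1, 62.0 and 59.6 in epithelial captures. These did not overlap, but they lay above background on 0 of 4 erythroid and 1 of 4 epithelial arrays, so no size is given. The third, 1450392_at, was below background on all 8 arrays.

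Pltp, the phospholipid transfer protein, was the single tested member with a value above 0. Its probe set 1456424_s_at had signals of 396, 379, 365 and 321 in erythroid captures, against 381, 346, 210.5 and 173 in epithelial captures. The groups overlapped, with like values in pairs 1 and 2 and lower epithelial signals in pairs 3 and 4. The difference of 0.34 ± 0.24 did not pass (95% interval -0.18 to 0.86, adjusted p = 0.367). A second probe set, 1417963_at, ranged from 39.3 to 119 in erythroid captures and from 12.5 to 123 in epithelial captures, with 1 of 8 arrays above background.

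Lcat, the plasma enzyme that esterifies cholesterol, had signals of 12.6, 80.7, 58.6 and 63.8 in erythroid captures on probe set 1417043_at, against 80.3, 124, 121 and 135 in epithelial captures. It was lower in the erythroid capture of each pair, though the groups met at 80.7 and 80.3. None of the 4 erythroid arrays and 2 of 4 epithelial arrays lay above background. The erythroid level is thus only a bound. With each erythroid array at the higher of its background and its own value, the epithelial mean of normalised log2 values was 1.24-fold higher. That ratio is uncertain, since only 2 of 4 epithelial arrays were above background, and it has no error. Lcat was too dim for the main test. In an alternative fit of all probe sets, whatever their signal, its difference was -1.30 ± 0.51 (adjusted p = 0.187).

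Of the 13 tested probe sets, 11 were lower in set B than in set A, and the exceptions were the dimmer one of Dgat2 and that of Pltp. The median over the 13 was -0.60 for set A and -0.95 for set B, and 0.00067 and 0.015 over all probe sets tested. The interaction passed at an unadjusted p under 0.05 for 5 of the 13, and after adjustment for the 1 of Fabp1. Among those not yet given by set, Mttp was at -1.51 for set A and -2.12 for set B on its brighter probe set and at -1.12 and -2.09 on the other. P4hb was at -0.25 and -0.45, Dgat1 at -0.061 and -0.32, and Pltp at 0.11 and 0.58. Marker lists were likewise further apart in set B. The median was 1.22 for set A and 3.02 for set B over the erythroid markers, -1.02 and -1.77 over the endoderm markers, and 0.36 and 2.34 over the mesenchyme and mesothelium markers. Col3a1 was at 0.16 for set A and 2.53 for set B, and Vim at 0.38 and 1.94 (interaction, adjusted p = 0.000274 and 0.00222). The parts of RNA length and of other cells in these values were not tested.

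**Figure D3:**
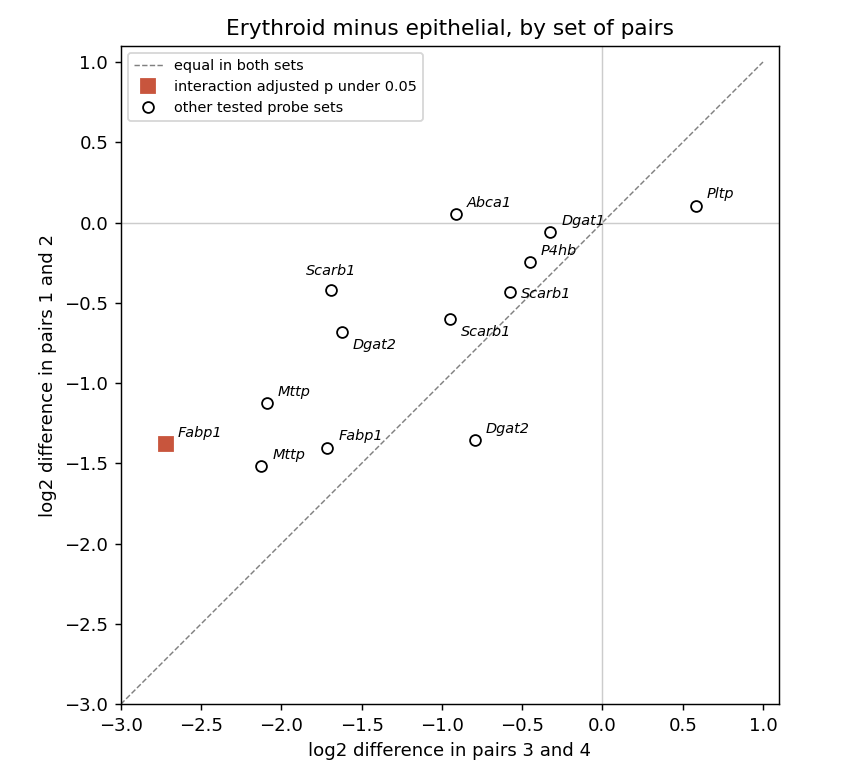
Log2 difference, erythroid minus epithelial, in pairs 3 and 4 (horizontal axis) and in pairs 1 and 2 (vertical axis) for the 13 tested probe sets, with the line of equal values dashed. Points above the line were lower in pairs 3 and 4, as were 11 of 13, and the square marks the Fabp1 probe set whose interaction passed the test.

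The proteins that the assembled lipid binds to gave the most uniform values of the 7 pathway lists. From 12 listed apolipoprotein genes and relatives, 10 could be tested, of which 10 fell and 0 rose, at a median of -1.54, beside 8.87% of all genes called lower. The largest changes were those of Apoa5, a regulator of plasma triglyceride, at -2.63 ± 0.49 (adjusted p = 0.00656), Apoc2, the cofactor of lipoprotein lipase, at -1.79 ± 0.19 (adjusted p = 0.00102), and Apoe, a ligand of lipoprotein receptors, at -1.75 ± 0.33 (adjusted p = 0.00693). The smallest change was that of Apoa4, at -1.20 ± 0.14 (adjusted p = 0.00122). Apob, the substrate of Mttp and singled out here after its value was seen, fell by 1.69 ± 0.30 (adjusted p = 0.00508), with an average signal of 1889 over the erythroid captures, against 7660.4 over the epithelial ones. Apoa5 was above background on 2 of 4 erythroid arrays, so the size of its difference is uncertain. Apoe was at -0.85 for set A and -2.65 for set B (interaction, adjusted p = 0.00999). The call of Apoe ended without replicate 4 (adjusted p = 0.0574), and that of Apoc1 without replicate 1 (0.0554), 3 (0.0812) or 4 (0.128).

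Enzymes that supply the lipid were less uniform. Of 11 tested among 21 listed, 3 fell and 0 rose, beside 8.87% and 6.02% of all genes tested, at a median of -0.36. The fatty acid activating enzyme Acsl4 was at -0.98 ± 0.25 (adjusted p = 0.024), with 1 of its 2 tested probe sets called. Gpam, which starts glycerolipid synthesis, was at -0.88 ± 0.15 (adjusted p = 0.00431). Mogat2, which makes the diacylglycerol that Dgat enzymes use, was at -0.85 ± 0.25 (adjusted p = 0.0447). Fasn, the fatty acid synthase, had the value nearest 0, at -0.069 ± 0.287 (adjusted p = 0.902). The call of Gpam held when any pair was left out, whereas that of Mogat2 ended when any of the 4 was left out (adjusted p = 0.0568 to 0.161) and that of Acsl4 without replicate 1, 3 or 4 (0.0531 to 0.0893).

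The secretory route that carries the particles out and the lipid droplet proteins gave 2 of 14 tested (18 listed) lower and 0 higher, at a median of -0.33. Of all genes tested, 8.87% were lower and 6.02% higher. Pla2g12b, which takes part in lipoprotein secretion by the liver, was at -1.44 ± 0.25 (adjusted p = 0.00441) and the droplet protein Plin3 at -1.16 ± 0.31 (adjusted p = 0.0315), with no call of Plin3 without replicate 3 (0.145) or replicate 4 (0.156). Sec23b, a coat protein of vesicles leaving the endoplasmic reticulum, was at -0.0076 ± 0.2083 (adjusted p = 0.986). Partners of P4hb in protein folding had 1 of 14 tested (15 listed) lower and 0 higher, at a median of -0.13. That count is near the share of all genes called lower. The gene called was Pdia5, a relative of P4hb, at -1.26 ± 0.32 (adjusted p = 0.0263), with no call without replicate 3 (0.111) or replicate 4 (0.151), and the oxidase Ero1a was nearest 0, at 0.016 ± 0.221 (adjusted p = 0.972).

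**Figure D4:**
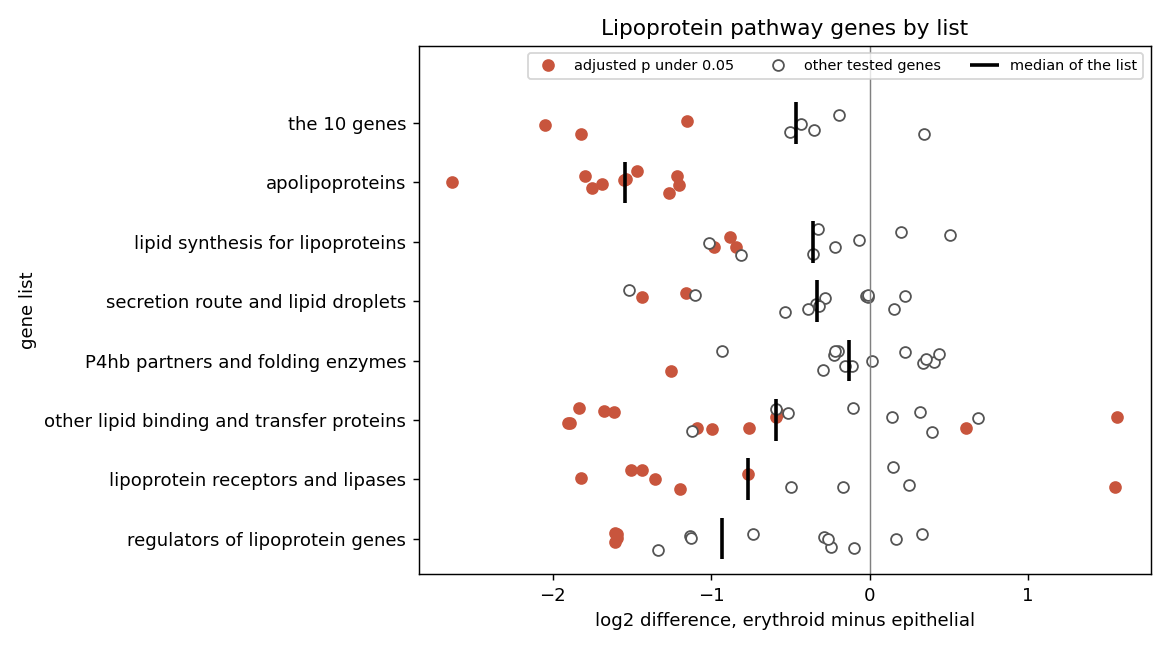
Log2 difference, erythroid minus epithelial (horizontal axis), of each tested gene of the pathway lists (vertical axis, with the 10 genes at the top), filled where the adjusted p was under 0.05, with a bar at each median. All 10 apolipoprotein points are filled and lie below -1, while the points of the folding enzymes centre near 0.

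Among 20 other lipid binding and transfer proteins tested (29 listed), 10 fell and 2 rose, at a median of -0.59. Of all genes tested, 8.87% fell and 6.02% rose. Among the carriers that fell, Dbi and Scp2 each had 1 of 4 tested probe sets called, and Stard4 1 of 2. Dbi was at -0.20 for set A and -1.32 for set B (interaction, adjusted p = 0.0164). Its call ended under deposited scaling (adjusted p = 0.085), median centring (0.0854) and 75th percentile centring (0.11). It also ended without replicate 3 (0.165) or replicate 4 (0.173). That of Scp2 ended under median (0.0708) or 75th percentile centring (0.0739), and without replicate 3 (0.116) or replicate 4 (0.107). Stard4 had no call without replicate 4 (0.0597). The fatty acid transporter Slc27a2 was at -1.90 ± 0.35 (adjusted p = 0.00625) and the cholesterol transporter Npc1 at -1.83 ± 0.36 (adjusted p = 0.00791), and the 2 that rose were Fabp4 and Fabp5. Abcg2, an exporter related to Abca1 in its ATP-binding domain, was nearest 0 at -0.10 ± 0.25 (adjusted p = 0.816), but at 0.54 for set A and -0.75 for set B (interaction, adjusted p = 0.0191). Slc27a2 was at -0.97 for set A and -2.84 for set B (interaction, adjusted p = 0.0135). Of 11 lipoprotein receptors and lipases tested (19 listed), 6 fell and 1 rose, beside the same shares of all genes, at a median of -0.77. Lipa, among those that fell, had 1 of 2 tested probe sets called. Pdzk1, the scaffold that holds Scarb1 at the membrane of liver cells, was at -1.82 ± 0.25 (adjusted p = 0.00204), Amn, the partner of the apolipoprotein A-I receptor cubilin, at -1.503 ± 0.241 (adjusted p = 0.00347) and the receptor Lrp2 at -1.44 ± 0.26 (adjusted p = 0.00549). Angptl4, a secreted inhibitor of lipoprotein lipase, rose by 1.55 ± 0.30 (adjusted p = 0.00821), with no call without replicate 4 (0.0596), and the lipase Lpl itself was at 0.15 ± 0.31 (adjusted p = 0.791).

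Regulators known to act on these genes had 4 of 14 tested (26 listed) lower and 0 higher, at a median of -0.93. Of all genes tested, 8.87% were lower and 6.02% higher. Hnf4a, which acts on Mttp and apolipoprotein genes in liver, fell by 1.61 ± 0.35 (adjusted p = 0.013), with an average signal of 691 over erythroid captures, against 1840.3 over epithelial ones, and no call without replicate 4 (adjusted p = 0.0577). The others called were Foxa3 at -1.61 ± 0.26 (adjusted p = 0.00355), Foxa2 at -1.59 ± 0.27 (adjusted p = 0.00416) and Creb3l3, a membrane-bound factor of liver and gut, at -1.59 ± 0.22 (adjusted p = 0.00212). Srebf1 and Srebf2, the regulators of fatty acid and cholesterol synthesis, were at -0.24 ± 0.22 and 0.16 ± 0.43 (adjusted p = 0.491 and 0.839), and Scap, their escort protein, was nearest 0 at -0.096 ± 0.241 (0.828). Nr1h3, a sensor of oxysterols that acts on Abca1, was below background on all 8 arrays, and Ppara, a fatty acid sensor that acts on Fabp1, on all 4 erythroid arrays, and neither was tested.

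The genes most like Fabp1 in their differences over the 4 pairs were Emb, which encodes the adhesion protein embigin, Acaa1a, a thiolase of peroxisomal fatty acid oxidation, and Otc, an enzyme of the urea cycle. Likeness was the mean absolute distance between 2 genes in the log2 difference of each pair. That distance was 0.027 for Emb, 0.14 for Acaa1a and 0.19 for Otc. The differences of Fabp1 were -1.69, -1.07, -2.76 and -2.67 in pairs 1 to 4, and those of Emb -1.62, -1.10, -2.76 and -2.67. These 3 were the nearest of all named genes tested and are a description of these 4 pairs.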

How the data were processed

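Gene expression was measured on Affymetrix mouse 3' expression arrays, 1 for each of 8 captures, from 10 to 39 ng of RNA amplified in 2 cycles, per the labels' protocols. The authors deposited 1 intensity (MAS5 signal) per probe set without taking logs. GCOS, MAS5 and affy are the tools listed, with no version, in the submitters' processing notes. Trimmed by 2% at each end, the deposited intensities averaged 500 on every array.

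Genes were named from the platform annotation, with symbols updated through gene identifiers, and from probe sets annotated to 1 gene (20380, with 691 for several genes and 1555 for none). To each value 8.14 was added (the 10th percentile over the table), log2 taken and the arrays quantile normalised. Probe sets at or above the array median on at least 4 of 8 arrays were tested with limma 3.58.1 in R 4.3.3 (variance trend, terms for pair and cell type, two-sided). An array's background is the level that 95% of 117 probe sets stay under, those for odorant, vomeronasal and taste receptors, keratin-associated proteins and defensins.

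The pairing comes from the labels, where both captures of a pair share slides. Deviations from the group means correlated at 0.44, 0.34, 0.31 and 0.54 within pairs 1 to 4. Captures of different pairs in the same set correlated at 0.28 to 0.35, and captures of different sets at -0.45 to -0.29. These values separate set A from set B and do not single out the pairs. The labels do not say whether the pairs share any litter. The interaction compared pairs 1 and 2 with pairs 3 and 4. Alternatives changed the scaling, offset, filter, pair term, variance trend, probe set choice and the pairs used. The procedure was tested on simulated data.

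Named were all members, the 3 largest calls of each list and the value nearest 0, and calls against a list's direction. Hnf4a, Nr1h3, Ppara, Srebf1, Srebf2 and the 3 genes nearest to the largest call were named too. Nr1h2, also planned, was not among the genes tested. Creb3l3 completes a count, and the fatty acid binding proteins were shown together after their values were seen. The members, lists and motifs were chosen with earlier results of these data known. Genes that share a probe set with others were not analysed here.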

Additional observations from a re-analysis of the deposited data

Results flagged for a closer look

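The epithelial capture of pair 2 stood apart from the other 3 for Mttp. Its signal on the brighter probe set was 2379.9, against 1801 to 1877 in the others, a gap of more than 0.829 of the group's range, the critical value of Dixon's test for 4 samples. It was the 1 such case among 36 groups of 4 signals, and chance alone gives about 1 in 20. Fabp1 differed between the sets of pairs: on its bright probe set the difference in pairs 3 and 4 minus that in pairs 1 and 2 was -1.34 (adjusted p of the interaction 0.024), lower in the erythroid capture of all 4 pairs, while its other probe set gave -0.31 (adjusted p = 0.859).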

How the results depend on the processing

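The count of members lower in the erythroid captures was 3 of 8 genes, and it lay between 2 and 4 in every alternative except pairs 3 and 4 alone, where it was 6. None was called higher in any of the 17 alternatives. Leaving out 1 pair at a time gave 2 to 3 lower and 0 higher. Without the replicate block, the term for the pair, the count was 2, as it was with no variance trend. Mttp and Fabp1 were called in all 17 alternatives. Dgat2 lost its call without the block (adjusted p = 0.0962), with no variance trend (0.0594), in pairs 1 and 2 (0.147), and without replicate 3 or 4 (0.056 and 0.0837). Scarb1 gained a call on its brightest probe set with the deposited scaling (0.0441), median centring (0.0429), 75th percentile centring (0.0441) and the stricter filter (0.0492). Dgat1 ranged from -0.41 to 0.021 when 1 pair was left out, turning above 0 without replicate 3, and Abca1 turned to 0.053 in pairs 1 and 2, neither called there. The median of the folding enzymes, -0.13, turned to 0.12 without probe sets of the x, s and a kinds. Apolipoprotein calls were 5 without the block and 6 with no variance trend, against 10. Over all alternatives the calls lower ran from 1 to 5 for lipid supply, 0 to 4 for secretion, 0 to 3 for folding, 4 to 13 for other carriers, 4 to 6 for receptors and 2 to 6 for regulators. Over all probe sets, 285 were lower and 160 higher without the block, 460 and 312 without replicate 3, 332 and 202 without replicate 4, and 339 and 179 with no variance trend, against 881 and 709. With median centring the middle of all differences shifted to -0.11, against 0.016, and no member turned. Signal near background limits Fabp3, Lcat, Dgat1 and the dimmer probe sets.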

Other observations

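Fabp7, the fatty acid binding protein of the developing brain, was bright in 1 pair alone. Its signal was 2261 in the erythroid and 994 in the epithelial capture of pair 1, and 11.1 to 52.7 in the other 3 erythroid and 4.02 to 43.8 in the other 3 epithelial captures, all below background. It was therefore not tested between cell types.

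Fabp4 also varied more between pairs than between cell types. Pair 2 had 6958 in the erythroid and 1969 in the epithelial capture, and pair 4 had 200.3 and 47.5, while each erythroid capture was above its epithelial partner. A second probe set of Fabp4 was also highest in pair 2 and lowest in pair 4 in both cell types, with 231, 2248, 816 and 86.8 in erythroid captures, against 74.4, 429, 149 and 53.1 in epithelial captures. These values for Fabp4 and Fabp7 were picked out after they were seen.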
